A study of Mus musculus with 20 samples.

Results

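Messenger RNA of 8 genes of the transforming growth factor beta (TGF-beta) pathway was followed in spinal cord microglia after injury. The genes are the ligand *Tgfb1*, the receptors *Tgfbr1* and *Tgfbr2*, the signal carriers *Smad2*, *Smad3* and *Smad4*, and the inhibitors *Smad7* and *Skil*. They were chosen by symbol, and all 8 were found among the 16810 genes of the table. Microglia were the eGFP-high cells collected with a flow sorter from the cords of adult male CX3CR1+/eGFP mice, in which an eGFP marker replaces 1 of the 2 copies of *Cx3cr1*, a chemokine receptor gene that monocytes also use. Every group, the controls included, therefore carried the reporter and a single intact copy of that gene. The controls were 3 samples of non-injured (NI) mice. Of lateral hemisection (HS), which cuts 1 side of the thoracic cord, there were 3 samples from 72 h, 2 from 1 week and 3 from 2 weeks after injury. Of full transection (FT) each time had 3 samples. The study used more mice than there are samples, and how many mice stand behind each sample is not given in the sources used here, so that p-values measure the spread between samples.

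TGF-beta 1 is secreted in a latent form that is held by binding proteins and released by integrins, thrombospondin and proteases. The free ligand joins the type II receptor TGFBR2 with the type I receptor TGFBR1, which phosphorylates SMAD2 and SMAD3. These enter the nucleus with SMAD4 and act on target genes. SMAD7, which is itself induced by the pathway, blocks the type I receptor, and SnoN, the product of *Skil*, represses SMAD target genes. In the adult central nervous system microglia depend on TGF-beta signals to keep their resting identity.

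At 72 h the receptor *Tgfbr1* and the carrier *Smad3* fell after both injuries. *Smad4* and *Smad7* also fell after HS. *Tgfbr2* did not pass the test at 72 h and was higher than NI at 2 weeks after FT, and both depend on the scaling. *Tgfb1*, *Smad2* and *Skil* passed the test in none of the 15 comparisons. No member passed the test between FT and HS at any time. The ratio of *Tgfbr1* to *Tgfbr2* reads was lower in all 17 injured samples than in the 3 NI samples. This ratio was computed after the values were seen. How often the ratio of other gene pairs separates the samples in this way was not examined.

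Levels are given in CPM, the reads of a gene in relation to the total of the sample after the authors' scaling. Depth on the listed genes was between 3872918 and 34099232 reads per sample. A gene was called changed at an adjusted p under 0.05 over 16810 genes with limma, and the study's further limit of 2-fold is named where it is met. FT 1 week replicate 1 stood apart from the other 2 samples of its group. Differences of *Tgfbr1*, *Smad2* and *Smad7* at 1 week after FT are given with and without it. Most other values that include it, among them those of *Smad3* and *Skil*, are given only with it. The 6 comparisons with NI share the same 3 control samples. *Csf1r*, 1 of 15 listed genes of resting microglia, had 6284 ± 638 CPM (SD, n = 3) in NI and 6249 ± 696 CPM (SD, n = 3) after FT at 72 h. This 1 gene does not settle which cells were sorted. At that time 3 of the 15 genes rose and 2 fell, where 14.8% of all genes rose and 9.33% fell. Of 6 monocyte and macrophage genes 5 rose. In a parallel cytometry experiment of the study on NI and HS mice, the eGFP-high cells lacked LY6C. FT mice were not part of that staining. Some infiltrating macrophages may be among the sorted cells. In bulk samples of this kind, fewer cells of a type and less RNA per cell cannot be told apart.

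The starts of the genes that changed are shown for the 3 members with an entry in the RefSeq promoter table (GRCm38.p6) whose level passed the test, namely *Tgfbr1* (chr4:47352972-47353221, plus strand), *Tgfbr2* (chr9:116175364-116175613, minus strand) and *Smad3* (chr9:63757995-63758244, minus strand). Each run is the 250 bases before the start, read 5′ to 3′ along the gene, and capitals mark a match to the SMAD motif CAGAC on either strand.
Tgfbr1: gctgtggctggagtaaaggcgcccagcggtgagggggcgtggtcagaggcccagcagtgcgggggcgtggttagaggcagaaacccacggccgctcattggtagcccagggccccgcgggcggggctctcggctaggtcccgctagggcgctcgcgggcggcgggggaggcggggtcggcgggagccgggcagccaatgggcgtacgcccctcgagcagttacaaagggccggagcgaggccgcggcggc
Tgfbr2: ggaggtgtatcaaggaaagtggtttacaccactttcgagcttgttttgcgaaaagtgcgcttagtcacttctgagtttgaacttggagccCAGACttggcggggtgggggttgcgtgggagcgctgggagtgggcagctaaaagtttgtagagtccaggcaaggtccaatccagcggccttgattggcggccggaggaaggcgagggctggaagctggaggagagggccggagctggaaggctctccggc
Smad3: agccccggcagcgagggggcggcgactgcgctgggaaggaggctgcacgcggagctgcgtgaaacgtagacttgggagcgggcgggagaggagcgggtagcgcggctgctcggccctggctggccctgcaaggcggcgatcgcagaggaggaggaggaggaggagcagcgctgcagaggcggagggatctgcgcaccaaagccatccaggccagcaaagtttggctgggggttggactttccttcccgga

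Searched on both strands of these windows were the SMAD motif CAGAC, the AP-1 motif TGANTCA and the PU.1 motif GAGGAAGT, and no match overlaps another. The *Tgfbr2* window holds 1 SMAD motif, and the *Tgfbr1* and *Smad3* windows printed here hold none. Neither of the other motifs occurs in any of the 3 windows. Of 32851 windows of the same length in the table, 42.2% hold the SMAD motif, 6.75% the AP-1 motif and 2.44% the PU.1 motif. The *Tgfbr1* and *Smad3* windows are rich in G and C, at 74.8% and 69.2%, against 58.4% for *Tgfbr2* and a median of 52.4% over all windows. These matches are a description of letters only. No exon of a member overlaps an exon of another gene in GENCODE mouse release 21. The RefSeq start of *Tgfbr2* lies just outside the gene in that release, and the bases after it begin no GENCODE transcript of *Tgfbr2*. For the *Tgfbr1* and *Smad3* windows the bases after the start begin a GENCODE transcript. *Tgfbr1* has a second listed start within the gene, whose window (chr4:47385966-47386215) holds 1 SMAD motif, and the windows of *Smad2*, *Smad4*, *Smad7* and *Skil* are not shown.

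*Tgfb1* (chromosome 7 of GRCm38, 25687002 to 25705077) encodes the ligand. Its level was low in every group. Whether reads of this gene were lost in mapping or counting could not be told from the table, so that its level, its tests and its place among the members are uncertain. NI samples had 2.80, 3.60 and 2.88 CPM, from 47, 28 and 30 reads. After HS the level was 2.58, 2.36 and 3.69 CPM in the 72 h samples, 3.68 and 3.01 CPM in those of 1 week and 5.30, 1.28 and 3.62 CPM in those of 2 weeks. After FT these levels were 2.75, 3.51 and 3.03 CPM, then 4.15, 2.17 and 2.29 CPM, then 3.65, 4.44 and 5.04 CPM. The injured groups overlapped NI except that the 3 FT samples at 2 weeks lay above the NI samples, as did those of 17.3% of all genes. That difference was 0.44 on the log2 scale (standard error 0.33) and did not pass the test, and its 95% interval runs from -0.26 to 1.13. The lowest sample, HS 2 weeks replicate 2, rests on 6 reads, so that counting error is large in single samples of this gene.

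*Tgfbr1* (chromosome 4, 47353222 to 47414931) encodes the type I receptor, the kinase that phosphorylates SMAD2 and SMAD3. NI samples had 1159.8, 1057 and 1052 CPM. The 72 h samples had 498, 706 and 733 CPM after HS and 538, 493 and 603 CPM after FT. All 6 samples lay below all NI samples, as did those of 16.2% of all genes. After HS the level fell by 0.77 on the log2 scale (standard error 0.22, adjusted p = 0.0137). After FT it was 2.00-fold lower (log2 standard error 0.22, adjusted p = 0.00234), which also met the 2-fold limit. The HS call was lost without HS 72 h replicate 1, the lowest of its group (log2 fold change -0.60, adjusted p = 0.0925). The FT call held without any 1 sample and under every other setting run, while the log2 size fell short of 2-fold under DESeq2 (-0.9952) and without FT 72 h replicate 2 (-0.93), among others.

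Later samples of *Tgfbr1* were nearer to NI. After HS they had 1027 and 869 CPM at 1 week and 1043, 1217 and 809 CPM at 2 weeks. After FT they had 621, 1139 and 980.1 CPM at 1 week and 1141, 945 and 978 CPM at 2 weeks. The ranges overlapped those of NI in 3 of these 4 groups. Between FT at 72 h and FT at 2 weeks the level rose by 0.91 on the log2 scale (standard error 0.22, adjusted p = 0.0169), and the 2 groups did not overlap, which held in this direction for 12.9% of all genes. That call was lost without FT 72 h replicate 1 or 2 or FT 2 weeks replicate 1 or 3, with adjusted p from 0.0502 to 0.0726. The low value at 1 week was FT replicate 1, and without it the rise from 72 h to 1 week after FT was 0.96 on the log2 scale (adjusted p = 0.00536) in place of a difference that did not pass the test.

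*Tgfbr2* (chromosome 9, 116084293 to 116175360) encodes the type II receptor, which binds the ligand and activates TGFBR1. NI samples had 318, 288 and 284 CPM. The samples from 72 h had 284, 238 and 279 CPM after HS and 268, 273 and 304 CPM after FT, and both groups overlapped NI. The log2 value passed the test as a fall when every column was scaled to 1 total (-0.66 after HS, adjusted p = 0.00222, and -0.55 after FT, adjusted p = 0.00905) and likewise with quantile normalization (-0.68 and -0.57). At 1 week the samples had 352 and 331 CPM after HS and 350.3, 439.9 and 345 CPM after FT. At 2 weeks the samples had 409, 357 and 368 CPM after HS and 487, 409 and 383 CPM after FT. All 11 samples at 1 and 2 weeks lay above all 3 NI samples, as did those of 6% of all genes.

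The comparison of FT at 2 weeks with NI passed the test for *Tgfbr2* (log2 fold change 0.52, standard error 0.16, adjusted p = 0.0453), short of 2-fold. This call was narrow: leaving out any 1 of the 6 samples gave adjusted p from 0.0553 to 0.233. Scaling by the median of ratios gave 0.0519, and the quasi-likelihood test of edgeR gave 0.0507. With every column scaled to 1 total the log2 fold change was 0.12 at 2 weeks after FT and -0.0075 and -0.0022 at 1 week after HS and FT, so that the direction at 1 week depends on the scaling. Within the injured samples, the level rose from 72 h to 2 weeks by 0.50 on the log2 scale after HS (standard error 0.16, adjusted p = 0.0445) and by 0.59 after FT (standard error 0.16, adjusted p = 0.0265). The groups compared did not overlap, as for 14.3% of all genes after HS and 12.9% after FT, and the direction held under all settings run. The HS call was lost under edgeR's quasi-likelihood test (0.0528) and without any 1 of its 6 samples (adjusted p from 0.0557 to 0.163), and the FT call without replicate 1 or 2 of either group (0.0623 to 0.129).

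The ratio of *Tgfbr1* to *Tgfbr2* CPM within a sample does not depend on how the columns are scaled. It was computed after the values were seen and is given as a description. NI samples had 3.65, 3.67 and 3.70. In the HS samples the ratio was 1.75, 2.96 and 2.63 at 72 h, 2.92 and 2.63 a week after injury, and 2.55, 3.41 and 2.20 at 2 weeks. In the FT samples it was 2.01, 1.81 and 1.98, then 1.77, 2.59 and 2.84, then 2.35, 2.31 and 2.55. The 17 injured samples ran from 1.75 to 3.41, and all lay below the lowest NI sample. At 72 h the lower ratio went with lower *Tgfbr1*, and at 2 weeks after FT with higher *Tgfbr2*, while *Tgfbr1* was at 1021 ± 105 CPM (SD, n = 3) against 1089 ± 60.9 CPM (SD, n = 3) in NI. Which gene moved at 2 weeks depends on the scaling, since with every column scaled to 1 total the log2 difference from NI was -0.49 for *Tgfbr1* and 0.12 for *Tgfbr2*, and neither passed the test. Other samples of NI were not analysed here, so that the narrow NI range rests on 3 samples.

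**Figure D1:**
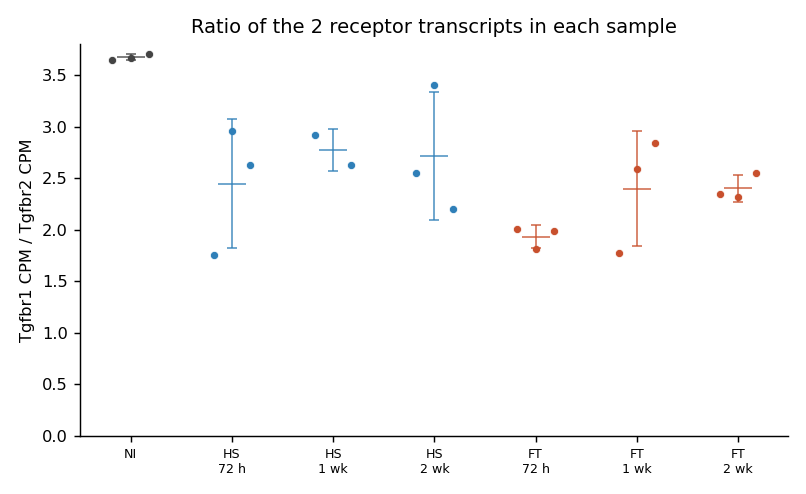
Ratio of *Tgfbr1* to *Tgfbr2* CPM (vertical axis, no unit) in each of the 20 samples by group; points are samples, horizontal marks are group means and bars are 1 SD. All 17 injured samples lie between 1.75 and 3.41, below the NI samples at 3.65 to 3.70.

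*Smad3* (chromosome 9, 63646767 to 63757994) encodes one of the carriers that the receptors phosphorylate. NI samples had 81.0, 87.6 and 79.9 CPM. Those of 72 h had 58.8, 48.5 and 57.4 CPM after HS and 50.4, 56.1 and 63.9 CPM after FT. At 1 week they had 52.7 and 60.3 CPM after HS and 48.4, 74.2 and 59.9 CPM after FT, and at 2 weeks 69.1, 61.8 and 63.4 CPM after HS and 71.9, 62.3 and 61.6 CPM after FT. All 17 injured samples lay below all 3 NI samples, a pattern that 2.3% of the 16810 genes shared. The fall passed the test at 72 h after HS (log2 fold change -0.59, standard error 0.17, adjusted p = 0.0105). It also did so after FT (-0.55, with a standard error of 0.17 and adjusted p = 0.0193).

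From 1 week on the differences of *Smad3* from NI ran from -0.55 to -0.34 on the log2 scale and did not pass the test, although their unadjusted p was under 0.05 in all 4 groups. No difference of *Smad3* between times passed the test either. The HS call at 72 h was lost without HS 72 h replicate 2 (adjusted p = 0.0554), and the FT call without NI replicate 2 (0.0786) or FT 72 h replicate 1 (0.0871).

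*Smad2* (chromosome 18, 76241580 to 76310963), the other phosphorylated carrier, had 52.0, 56.8 and 46.2 CPM in NI. The 17 injured samples ran from 30.8 to 57.5 CPM. The lowest was FT 1 week replicate 1, and the other 16 lay between 44.4 and 57.5 CPM. Group means kept between 44.6 and 53.5 CPM. The largest difference from NI was -0.24 on the log2 scale, at 1 week after FT, with a 95% interval from -0.62 to 0.13, and it was close to 0 without FT 1 week replicate 1 (-0.00021).

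*Smad4* (chromosome 18, 73639009 to 73703780) encodes the partner that SMAD2 and SMAD3 share with the bone morphogenetic protein branch. NI samples had 29.97, 39.1 and 43.9 CPM. Those of 72 h had 22.9, 24.7 and 29.7 CPM after HS and 28.2, 27.5 and 29.7 CPM after FT. All 6 lay below NI, the highest of each group by less than 1 CPM, and 16.2% of all genes shared this order. The fall passed the test after HS (log2 fold change -0.53, standard error 0.18, adjusted p = 0.0354) and not after FT (-0.38, standard error 0.18, adjusted p = 0.133), and the 2 groups did not differ from each other by the test (0.15, 95% interval -0.23 to 0.53). The call of *Smad4* after HS was lost without NI replicate 2 (adjusted p = 0.111), NI replicate 3 (0.170), HS 72 h replicate 1 (0.136) or HS 72 h replicate 2 (0.0920). Later samples ran from 26.6 to 41.5 CPM, within or just below the NI range, and no later comparison passed the test.

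*Smad7* (chromosome 18, 75367529 to 75395935) encodes the inhibitor that the pathway induces. NI samples had 45.05, 57.5 and 58.4 CPM. Those of 72 h had 17.7, 18.5 and 30.1 CPM after HS and 20.5, 27.7 and 29.7 CPM after FT, all below NI, as for 16.2% of all genes. The log2 fold change was -1.29 after HS (standard error 0.39, adjusted p = 0.0170), which is 2.45-fold lower, the largest change of any member. It was -1.04 after FT (standard error 0.39), where limma gave adjusted p = 0.0556 and DESeq2 0.0347. The HS call was lost without NI replicate 2, NI replicate 3, HS 72 h replicate 1 or HS 72 h replicate 2, with adjusted p from 0.0584 to 0.0729.

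At later times *Smad7* differed widely within groups. After HS the samples had 44.9 and 49.3 CPM at 1 week and 31.5, 49.6 and 61.8 CPM at 2 weeks. After FT they had 67.5, 19.3 and 17.3 CPM at 1 week and 28.5, 63.5 and 62.5 CPM at 2 weeks. At 1 week after FT replicate 1 was above all NI samples and the others were below all of them. The difference from NI was -0.90 on the log2 scale (adjusted p = 0.205), and without that replicate -1.52 (adjusted p = 0.00314).

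The level of *Smad7* moved across samples with that of 9 immediate-early and heat-shock genes (*Fos*, *Fosb*, *Jun*, *Egr1*, *Atf3*, *Ier2*, *Dusp1*, *Hspa1a* and *Hspa1b*), which cells switch on within minutes of a stimulus. Their summed level was 4060.0, 6784 and 6676 CPM in NI, 2149, 2439.9 and 2968 CPM at 72 h after HS, and 2097, 2349 and 2607 CPM at 72 h after FT. At 1 week after HS it was 5091 and 5001 CPM. The 2 low *Smad7* samples at 1 week after FT had sums of 891 and 607 CPM and the high one 4002. At 2 weeks the sample with low *Smad7* had 1433 CPM after HS and 595 after FT, against 5978 to 8026 CPM in the other 4.

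Over the 20 samples Pearson's r between the log2 values was 0.81 (Spearman's rho 0.80), and 0.78 without the 2 samples farthest from the median sum. Within groups, after each group's mean was taken off, r was 0.89. For the other 7 members the within-group r ran from -0.58 to 0.35. With the log2 sum as a term in the fit, chosen after the values were seen, the difference of *Smad7* from NI was -0.75 at 72 h after HS (adjusted p = 0.0192) and -0.45 after FT (adjusted p = 0.177). At 1 week after FT it was 0.08 (adjusted p = 0.937). With the same term *Tgfbr1* and *Smad3* kept their calls at 72 h, at -0.91 and -0.69 after HS and -1.15 and -0.65 after FT. Calls of *Smad4* at 72 h after HS (-0.47, adjusted p = 0.0833) and of *Tgfbr2* at 2 weeks after FT (0.44, adjusted p = 0.0826) were lost, and *Smad7* passed the test between 72 h and 2 weeks after both injuries (0.71 and 0.78), as did *Tgfbr1* after HS (0.76). What sets the sum itself in these samples was not tested.

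**Figure D2:**
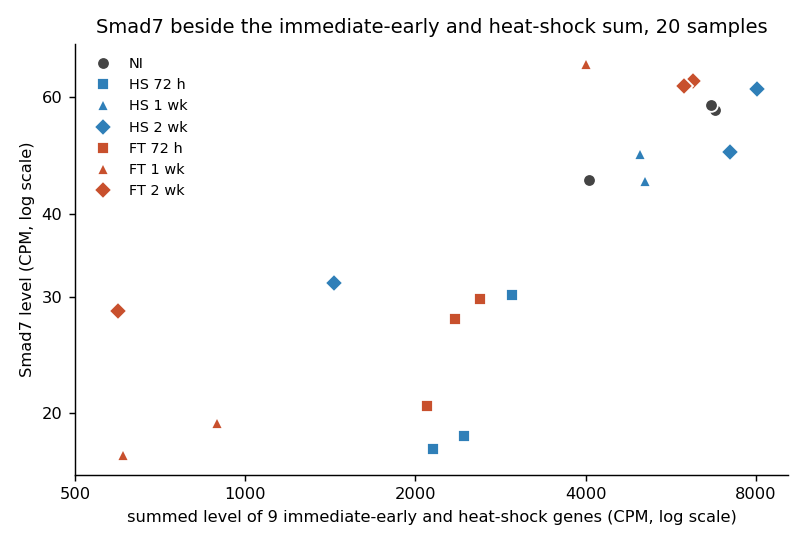
Level of *Smad7* (vertical axis, CPM, log scale) against the summed level of 9 immediate-early and heat-shock genes (horizontal axis, CPM, log scale); each point is 1 of the 20 samples, coloured by injury and shaped by time. Samples with sums of at most 2968 CPM have at most 31.5 CPM of *Smad7*, and those with sums of at least 4002 CPM have at least 44.9.

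*Skil* (chromosome 3, 31095058 to 31122577), whose product SnoN represses SMAD targets, had 349, 369 and 373 CPM in NI. At 72 h the samples had 339, 323 and 337 CPM after HS and 294, 286 and 289 CPM after FT. The 6 samples lay below NI, as for 16.2% of all genes, and neither difference passed the test (-0.13 and -0.33 on the log2 scale, standard error 0.19). Later samples ran from 284 to 514 CPM and the groups overlapped, apart from HS at 1 week, whose samples of 467 and 413 CPM lay above NI (20.2% of all genes) and above the FT samples of that time (284, 358 and 331 CPM, 8.25% of all genes). The difference of *Skil* between FT and HS at 1 week was -0.44 on the log2 scale (95% interval -0.88 to -0.01, unadjusted p = 0.0472) and did not pass after adjustment (adjusted p = 0.999).

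**Figure D3:**
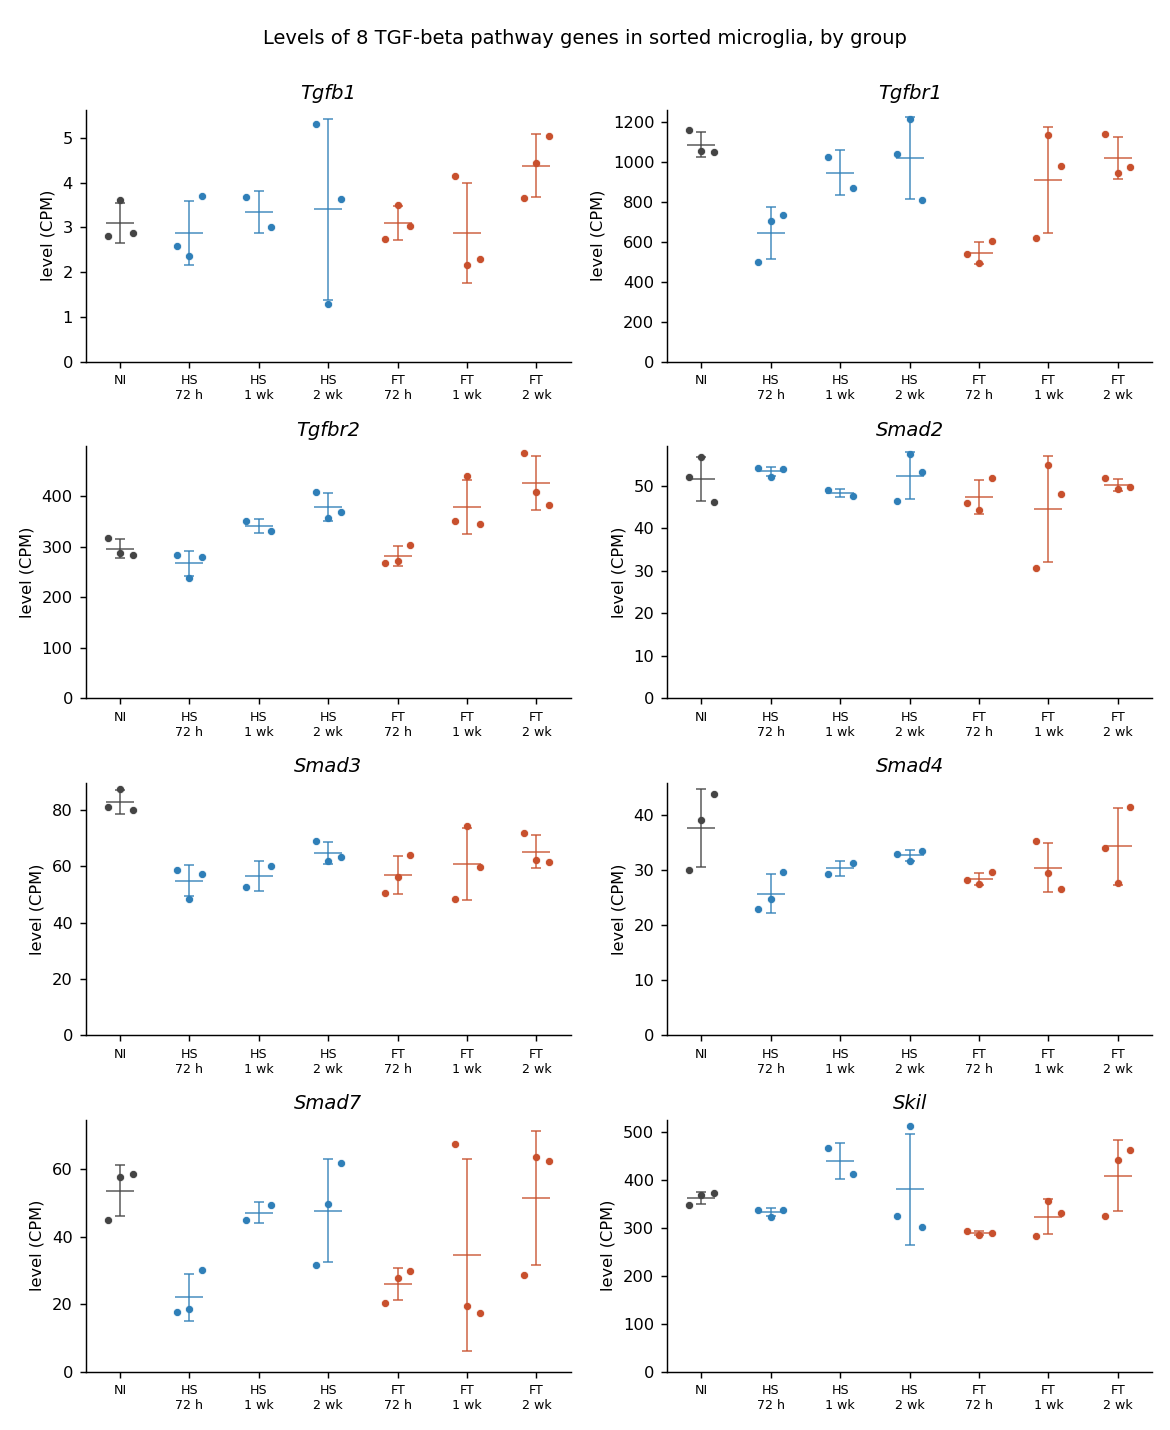
Level of each of the 8 genes (vertical axes, CPM, from 0) in the 20 samples by group; points are samples, horizontal marks are group means and bars are 1 SD. *Tgfbr1* is at 493 to 733 CPM in the 6 samples at 72 h against 1052 to 1159.8 CPM in NI, and *Smad3* is below its NI samples in every injured group.

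Counted together, the members passed the test in 7 of 48 comparisons with NI, where 12.4% of the tests of all genes did. At 72 h after HS 4 of 8 members were lower and none was higher, where 27.3% of all genes were called, 10.9% lower and 16.4% higher. At 72 h after FT 2 of 8 were lower, where 24.2% of all genes were called, 9.33% lower and 14.8% higher. At 2 weeks after FT 1 of 8 was higher, where 8.17% of all genes were called, 6.21% higher. With the 2-fold limit 1 member was lower at 72 h after each injury, where 13.4% of all genes were called after HS (4.31% lower) and 12.2% after FT (4.09% lower). The median log2 fold change of the 8 members was -0.34 after HS and -0.35 after FT at 72 h, against -0.11 and -0.09 for all genes.

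In the other 3 comparisons with NI limma called no member, nor did the other tests run, edgeR's quasi-likelihood and likelihood ratio tests and DESeq2. At an unadjusted p under 0.05 there were 1 member at 1 week after HS, 2 at 2 weeks after HS and 3 at 1 week after FT. The share of all genes called was 2.68%, 4.99% and 7.03%, in that order. The members' median log2 fold change was -0.13, -0.07 and -0.27, against 0.02, -0.005 and -0.03 for all genes. The values at 1 week after FT include replicate 1 of that group.

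**Figure D4:**
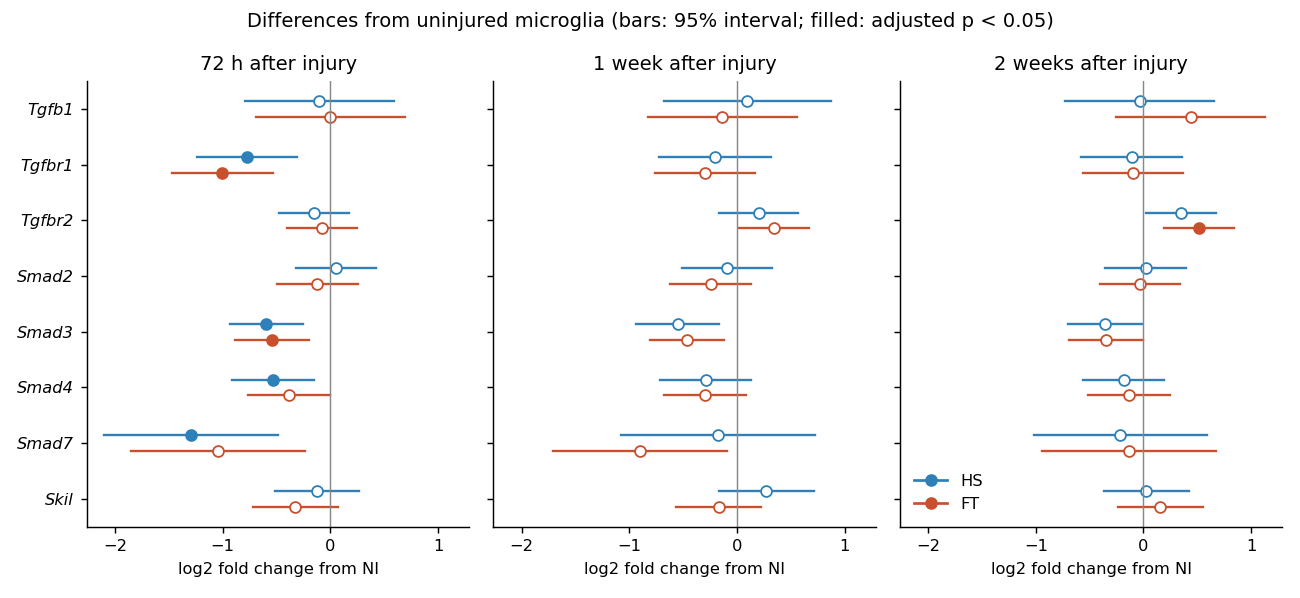
Log2 fold change from NI (horizontal axes) of the 8 genes at 72 h, 1 week and 2 weeks after HS (blue) or FT (orange); points are limma estimates, bars are 95% intervals and filled points passed an adjusted p under 0.05. The 6 filled points at 72 h lie between -0.53 and -1.29, and the filled point at 2 weeks is *Tgfbr2* after FT at 0.52.

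FT and HS were compared to ask whether severity mattered. No member passed the test in 24 comparisons, where 0% of all genes were called at each time. Only *Skil* at 1 week had an unadjusted p under 0.05, and edgeR's 2 tests and DESeq2 also called no member. Over all genes limma gave an unadjusted p under 0.05 for 505, 724 and 438 genes at 72 h, 1 week and 2 weeks. The intervals remain wide for some members. For *Tgfbr1* at 72 h the difference was -0.23 on the log2 scale with a 95% interval from -0.70 to 0.24, for *Smad3* 0.05 (-0.30 to 0.39), and for *Smad7* 0.25 (-0.55 to 1.06).

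Between times the members passed the test in 3 of 48 comparisons, all of them rises from 72 h to 2 weeks. These were *Tgfbr2* after HS, where 10.2% of all genes were called and 3.39% higher, and *Tgfbr1* and *Tgfbr2* after FT, where 5.78% were called and 2.01% higher. In the 4 other comparisons between times limma called no member, with an unadjusted p under 0.05 for 2 members between 72 h and 1 week after each injury and for none between 1 and 2 weeks. The share of all genes called there was 9.54% after HS and 5.28% after FT for 72 h to 1 week, and 0.0119% and 0.0714% for 1 to 2 weeks. From 72 h to 1 week after FT, the likelihood ratio test and DESeq2 called *Tgfbr1*. From 72 h to 2 weeks after HS these tools called *Tgfbr1*, *Tgfbr2* and *Smad7*, and edgeR's quasi-likelihood test called no member.

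Levels were compared between the members after division by exon length, in CPM per kb. In NI *Tgfbr1* was the highest at 167 ± 9.32 (SD, n = 3). *Skil* at 37.5 ± 1.33 and *Tgfbr2* at 36.2 ± 2.26 did not differ beyond their spread, but with the length of the longest transcript in place of all exons they did, at 54.1 ± 1.92 and 36.7 ± 2.29. They were followed by *Smad3* at 14.95 ± 0.754, *Smad7* at 11.9 ± 1.65, *Smad4* at 10.1 ± 1.91, *Smad2* at 5.88 ± 0.600 and *Tgfb1* at 0.614 ± 0.0879. *Smad7* and *Smad4* overlapped. At 72 h after FT *Tgfbr1* was still the highest, at 83.4 ± 8.47 CPM per kb.

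The order of the groups differed between members. NI held the highest mean for *Tgfbr1*, *Smad3*, *Smad4* and *Smad7*, and the lowest means of *Tgfbr1*, *Tgfbr2*, *Smad3*, *Smad4*, *Smad7* and *Skil* were all at 72 h. Neighbouring groups in these orders overlapped in their samples, with 5 exceptions. NI stood clear of the next lower group for *Smad3* and *Skil*. For *Tgfbr2* the groups HS 2 weeks, HS 1 week and NI were separate in that order, and HS 1 week lay above NI for 20.2% of all genes. For *Smad2* FT 2 weeks, at 49.2 CPM or more, lay just above HS 1 week, at 49.0 CPM or less. The groups were put in order by these same values, and for the other gaps the share of all genes was not examined. The lowest mean of *Smad2* and *Tgfb1* was at 1 week after FT, but that of *Smad2* rests on FT 1 week replicate 1, without which it was 51.6 CPM and FT 72 h was lowest at 47.4 CPM.

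Over the 20 samples the genes whose log2 level was most like that of each member were searched among 9871 genes with a mean of at least 5 CPM. *Smad7* was most like *Jund* (r = 0.96), *Plk3* (0.95) and *Hexim1* (0.94), of which *Jund* encodes a part of AP-1. *Tgfbr1* was most like *BC016423* (0.95), *Zscan26* (0.93) and *Zmym5* (0.91). *Tgfbr2* was most like *Larp1* (0.91), *Specc1l* (0.90) and *Slc11a2* (0.88), and *Smad3* was most like *Slc16a6* (0.91), *Nr3c1*, the glucocorticoid receptor gene (0.87), and *Eif2ak3* (0.86).

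The remaining members had these likenesses. *Smad4* was most like *Vmn1r65*, *Bptf* and *Sertad2* (all 0.90), and *Smad2* was most like *Wdr5b*, *Zfp672* and *Zfp189* (0.88, 0.88 and 0.87). For *Smad2* Spearman's rho with these genes was 0.55, 0.80 and 0.70. Whether its r values rest on FT 1 week replicate 1, the lowest *Smad2* sample, was not tested. Of the 3 genes most like *Skil*, *Map3k12* and *Wsb1* are named here (both 0.80), and *Tgfb1* was most like *Ppp6r1* (0.81), *Ube2z* (0.79) and *Cacfd1* (0.78). No member was among the 3 genes most like another member. Between members the highest r was 0.71, for *Smad4* and *Smad7*, followed by 0.63 for *Tgfbr1* and *Smad3*. These values describe samples that share groups and libraries.

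Beyond the members, 76 genes of the pathway were examined in 6 lists, written from general knowledge but with earlier results of these data known. They passed the test in 69 of 456 comparisons with NI, where 12.4% of the tests of all genes did. Among 13 genes of ligands and latency, *Thbs1*, whose product thrombospondin 1 can free latent TGF-beta, rose by 2.14 on the log2 scale at 72 h after HS, 2.61 at 72 h after FT and 1.60 at 1 week after HS. *Itgav*, a subunit of the integrins that release the ligand, fell by 0.45 and 0.47 at 72 h, and *Itgb6*, at 1.29 ± 0.239 CPM (SD, n = 3) in NI, fell by 0.90 after HS. *Lrrc33*, which holds latent TGF-beta on microglia, had 196 ± 5.80 CPM (SD, n = 3) in NI, 207 ± 27.5 after HS and 192 ± 36.3 after FT at 72 h, and passed the test in no comparison with NI.

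Other receptors of the family fell at 72 h or did not pass the test. Of 13 receptors and co-receptors, 6 fell after HS and 4 after FT, and none rose, where 10.9% and 9.33% of all genes fell. The activin type II receptors *Acvr2b* (-2.29 after HS and -2.11 after FT) and *Acvr2a* (-1.15 and -1.17) fell by more than 2-fold after both. *Acvr1c* (-1.14) and *Bmpr1b* (-1.13) did so after HS, *Acvr2b* also at 1 week after FT (-1.27) and *Bmpr1b* at 2 weeks after FT (-1.20). The median of the list was -0.81 after HS and -0.65 after FT, against -0.11 and -0.09 for all genes. *Acvrl1*, the type I receptor with 57.5 ± 4.91 CPM (SD, n = 3) in NI, had 62.9 ± 4.43 after HS and 67.6 ± 7.95 after FT and did not pass the test.

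Of 11 other Smads and cofactors, 5 fell at 72 h after HS and 3 after FT, where 10.9% and 9.33% of all genes fell. The co-repressor *Tgif2* (-1.23 after both) and *Zfyve9* (-1.20 and -1.18), whose product SARA brings SMAD2 and SMAD3 to the receptor, fell by more than 2-fold. *Smad1* fell by 0.66 after HS and 0.53 after FT, and *Ski*, the relative of *Skil*, fell by 0.62 after HS. *Tgif1* rose by 0.76 at 2 weeks after HS and by 0.78 after FT. Among 13 modifiers, 1 rose and 2 fell at 72 h after HS, and 1 rose and 3 fell after FT, close to the 27.3% and 24.2% of all genes called. *Fkbp1a*, whose product binds the type I receptor, rose by 0.72 and 1.06, the ubiquitin ligase gene *Smurf1* fell by 0.89 and 0.92, and *Ldlrad4*, which restrains the pathway, fell by 0.82 and 0.94.

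Most listed genes that TGF-beta is known to induce did not pass the test at 72 h. Of 11 such genes 3 rose at 72 h after HS and 2 after FT, and none fell, where 16.4% and 14.8% of all genes rose. *Fn1*, the fibronectin gene, rose by 5.33 and 5.39 on the log2 scale at 72 h and by 4.09 to 4.84 later, and *Tgfbi* rose by 1.63 and 1.73 at 72 h. *Klf10* rose by 0.97 after HS. *Id2*, with 295 ± 43.8 CPM (SD, n = 3) in NI, had 272 ± 73.6 after HS and 313 ± 86.0 after FT at 72 h and did not pass the test.

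Of 15 genes of resting microglia, whose expression is known to need TGF-beta, some rose and some fell. At 72 h 3 rose and 3 fell after HS, and 3 rose and 2 fell after FT. Of all genes 16.4% rose and 10.9% fell after HS at that time, and 14.8% rose and 9.33% fell after FT. *Tmem119* fell by 1.22 and 1.13, and *Sall1*, a transcription factor gene, by 0.71 and 0.72. *Fcrls* rose by 1.51 and 1.61, *Gas6* by 1.45 and 1.42, and *Olfml3* by 0.89 and 0.94. At 1 week after FT *Fcrls* rose by 1.15 and *Gas6* by 1.32. *Slc2a5* fell after HS by 1.36 at 1 week and 1.05 at 2 weeks, and after FT by 1.01 and 1.39, and the purine receptor gene *P2ry12* fell by 1.11 at 2 weeks after FT.

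**Figure D5:**
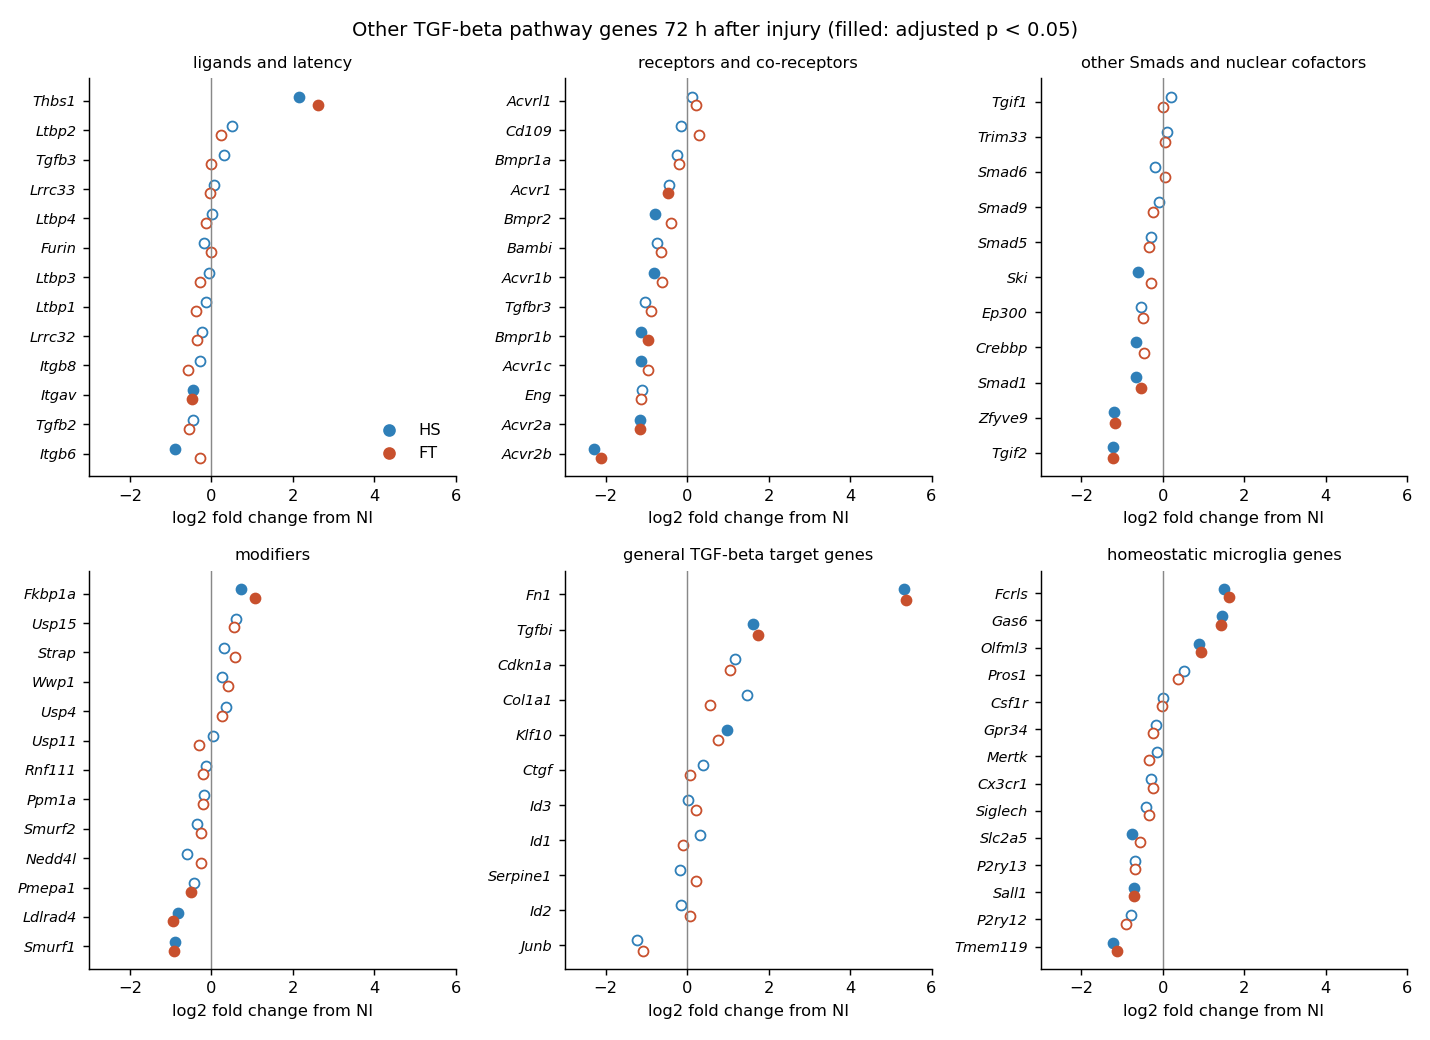
Log2 fold change from NI (horizontal axes) at 72 h after HS (blue) and FT (orange) of the genes in 6 lists, of which 1 microglial gene is not shown; points are limma estimates, and filled points passed an adjusted p under 0.05. In the receptor list all filled points lie to the left of 0, and *Fn1* is at 5.33 and 5.39.

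Markers of other cells and states changed at the same time as the members. The summed level of 5 proliferation genes was 23.8 to 29.6 CPM in NI, 552 to 993 CPM at 72 h and 35.4 to 69.1 CPM later. The sum of 6 monocyte and macrophage genes, all of them detected, was 55.0 to 64.2 CPM in NI, 124 to 202 CPM at 72 h after HS and 128 to 481 CPM at 72 h after FT, where replicate 1 was the highest. In the later samples it was 27.0 to 84.6 CPM. Of these genes 3 of 6 rose after HS and 5 of 6 after FT at 72 h, where 16.4% and 14.8% of all genes rose. *Ly6c2*, a defining gene of inflammatory monocytes, rose from 1.08 ± 0.479 CPM (SD, n = 3) in NI to 4.64 ± 1.29 CPM (SD, n = 3) at 72 h after FT (log2 fold change 1.72, adjusted p = 0.0131).

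Transcripts of other cells of the cord were also found. The sum of 7 oligodendrocyte genes was 1139 to 2324 CPM in NI, 606 to 2067 CPM at 72 h and 382 to 2436 CPM later, with 1 called lower at 72 h after FT and none after HS. The sum of 7 astrocyte genes was 301 to 511 CPM in NI, 257 to 613 CPM at 72 h and 146 to 397 CPM later. At 72 h 1 of these rose and 4 fell after HS, and 2 rose and 2 fell after FT. Of all genes 27.3% were called at 72 h after HS and 24.2% after FT. The sum of 6 neuron genes was 30.3 to 52.4 CPM in NI and lower in all injured samples, at 10.3 to 29.1 CPM.

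Genes of border-associated macrophages summed to 177 to 185 CPM in NI, 135 to 232 CPM at 72 h and 85.9 to 209 CPM later. Of these 6 genes 2 rose and 2 fell at 72 h after each injury, and 1 rose and 5 fell at 2 weeks after each. Of all genes 27.3% and 24.2% were called at 72 h after HS and FT, and 4.99% and 8.17% at 2 weeks. Endothelial genes summed to 22.2 to 58.6 CPM and lymphocyte genes to 3.48 to 14.2 CPM over all samples. The part of these cells in the changes of the members was not tested.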

How the data were processed

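Polyadenylated RNA of sorted microglia was sequenced in 20 samples of 7 groups. The authors trimmed the reads, mapped them with TopHat 2.0.9 to mm10 (GRCm38), counted them per gene with HTSeq 0.5.4p3, dropped genes that did not reach 10 reads in 2 or more replicates, and scaled the counts to library size with edgeR 3.3.6. The signal they deposited is this normalized count in CPM, and 99.989% of the 336200 values came out as whole reads within 0.001 read. The strand setting and any batch are not given in the sources used here.

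Values were taken as log2 of CPM plus 0.5. limma 3.58.1 with an intensity trend was fitted to all samples with 1 mean per group, and p-values were adjusted (Benjamini-Hochberg) over all 16810 genes in each of 15 comparisons. edgeR 4.0.16 and DESeq2 1.42.0 were run on the recovered reads as alternatives, beside other added values, filters, scalings, a replicate block and leaving out each sample. The fits were tested on simulated data. The members and lists were chosen with earlier results of these data known. The genes named are all members, the 3 most like each, the pathway genes called at 2-fold or more, and a few of the most abundant. Some items are not reported here. Some called genes short of 2-fold were named after their values were seen. Lengths and coordinates are from GENCODE mouse release 21, and promoter windows from RefSeq. Intervals of reads cover counting error only.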

Additional observations from a re-analysis of the deposited data

Results flagged for a closer look

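A difference between times was found for 3 results, each of which is also the difference between the effects against NI at the 2 times. *Tgfbr1* rose from 72 h to 2 weeks after FT by 0.91 on the log2 scale (adjusted p = 0.0169), with all 3 later samples above all 3 earlier ones. *Tgfbr2* rose from 72 h to 2 weeks by 0.50 after HS (adjusted p = 0.0445) and by 0.59 after FT (adjusted p = 0.0265), also with no overlap of the samples. Whether the rises differ between HS and FT was not tested.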

How the results depend on the processing

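Of the 7 calls of members against NI, 3 between times and 69 of the pathway lists, quantile normalization gave 16, 10 and 113, and scaling every column to 1 total gave 20, 9 and 155. The limit of 2-fold left 2, 0 and 37. The edgeR likelihood ratio test and DESeq2 each gave 6 calls between times, as did the immediate-early and heat-shock sum as a term, added after seeing the data. Leaving out 1 sample gave 3 to 10, 0 to 7 and 44 to 102 calls. The fewest against NI came without HS 72 h replicate 1 or NI replicate 2 (3 each), the fewest between times without FT 72 h replicate 1 (0), FT 72 h replicate 2 or any FT 2 weeks replicate (1 each), the fewest of the pathway lists without NI replicate 2 or 3 (44 each), and the most without FT 1 week replicate 1 (10, 7 and 102). FT against HS gave 0 calls of members under every setting. *Smad2* at 72 h after HS turned from 0.05 to -0.45 on the log2 scale when every column was scaled to 1 total, which moved the median of all genes there from -0.11 to -0.52. The deposited columns summed to 777426 to 830481 CPM in NI, 1066745 to 1202186 CPM at 72 h and 878070 to 1118932 CPM later. Scaling to a common total therefore lowers injured samples in relation to NI. What sets these totals, and the cause of the other changes, was not tested.

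With the replicate number as a block, limma gave 6, 2 and 63 calls, and *Tgfbr2* lost its calls at 2 weeks after FT against NI (adjusted p = 0.0638) and between 72 h and 2 weeks after HS (0.0610). Fitted on the 6 samples of each comparison alone, *Tgfbr2* passed the test between 72 h and 2 weeks after neither injury (adjusted p = 0.0880 after HS and 0.0682 after FT). Samples of the same number did not deviate together (median r -0.0017 over 57 pairs, from -0.39 to 0.38), so the numbers were not taken to pair samples. Depth limits *Tgfb1*, with 6 to 78 reads per sample.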
